A study of Mus musculus with 32 samples.

Results

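The experiment described here is the response of the BALB/c mouse mesentery to pristane at day 3. Its members are 6 of the 32 arrays of the study, chosen by their labels: 3 arrays of BALB/c mice given 0.5 ml of pristane (TMPD) into the peritoneal cavity and sampled on day 3, and 3 arrays of untreated BALB/c mice of the same run of title codes, which the labels describe as prepared alongside. Both groups are BALB/c, no allele or further agent is named, and age and sex are not given in the sources used here. One label field spells the agent "pristine" on the treated arrays. A run here means a range of title codes, and the labels do not state whether such runs were experimental batches. The wider study also measured the DBA strain, the F1 of both strains and a day 18 time point on the same type of oligonucleotide array (Affymetrix Mouse Genome 430 2.0). The control mice received no injection, so handling and the oil itself cannot be told apart.

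The mesentery is the peritoneal fold that suspends the gut, and it holds fat, blood and lymph vessels, nerves, mesothelium and small clusters of leukocytes. Pristane is a hydrocarbon oil that resists breakdown. It draws neutrophils and monocytes into the peritoneal cavity, and over longer periods oil granulomas form on peritoneal surfaces, on which plasma cell tumours arise in BALB/c mice. Because the arrays measured RNA of whole tissue, fewer cells of a type and less RNA per cell cannot be told apart, and the same holds for increases.

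Each gene was represented by its brightest probe set with a single symbol, and 13016 of the 18193 genes on the array passed a filter on dim signals. Changes are given as log2 differences, treated minus control, of signal plus an offset of 24.9, with the standard error (SE) of limma's fit over all 32 arrays, and they understate the change of dim genes. A gene is said to have risen or fallen where limma's two-sided p-value, adjusted by Benjamini and Hochberg's method over all genes tested, was under 0.05. Nothing in the labels states that each array is a different mouse, and the p-values therefore measure no more than the spread between these arrays, which may be technical. Signals of different genes were set against each other only to filter, rank or describe genes as bright or dim. Such ranks do not give relative amounts of RNA. Some genes given below as not passing the test did pass under other settings, and they are named in the last section.

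The 6 arrays had median signals of 92 to 100.1, and arrays of a group correlated at 0.976 or more. The ratio of the 3' to the 5' probe set of the beta-actin gene, which rises as RNA is broken down, was 1.63, 1.80 and 2.21 on the treated arrays and 2.10, 2.60 and 2.55 on the controls, so it was lower on average after treatment although the groups overlapped. Its part in the results was not tested. Defining markers of the labelled tissue were bright in the controls, where the mean log2 level was 13.1 to 13.5 for 16 adipocyte markers, 10.99 to 11.5 for 16 mesothelial markers and 11.5 to 12.6 for 16 smooth muscle and pericyte markers. Pancreatic acinar markers, which come from a neighbouring organ, had a mean log2 level of 5.50 to 5.89 on the controls and of 5.52, 8.86 and 6.35 on the treated arrays. Treated replicate 2 was therefore the 1 array of the 6 with clear pancreatic signal, and 0 of 12 acinar markers passed the test. All 6 arrays had a high signal of Xist, the RNA that silences one X chromosome in female cells (16852 to 26178), and a low signal of the Y-linked Kdm5d (1.4 to 20.8).

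Of the genes tested, 35.5% changed: 18.3% were higher and 17.2% lower, with a median log2 change of -0.01 over all genes. The counts were 2385 higher and 2242 lower. The shares of 18.3% and 17.2% are the background for every list count that follows. Increases reached further: 1090 genes rose and 493 fell by at least 2-fold, 336 rose and 23 fell by at least 4-fold, and 30 rose by at least 16-fold. The direction differed with the level of a gene in untreated tissue, but part of this is built in: the control level also enters the change, dim genes have little room to fall, and a gene dim in the controls passed the filter through other arrays. Among the fifth of genes with the lowest control signal 23.9% rose and 3.23% fell, and among the fifth with the highest 11.9% rose and 35.4% fell. Of the 500 brightest genes of untreated mesentery, 22 rose and 237 fell, with a median of -0.37. After treatment 132 of the 500 brightest genes were ones that had not been among the 500 brightest in the controls. The median gene varied over 0.26 log2 units among the 3 treated arrays and 0.28 among the 3 controls. This spread was small beside a 2-fold change, though not beside the median change of all genes.

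**Figure D1:**
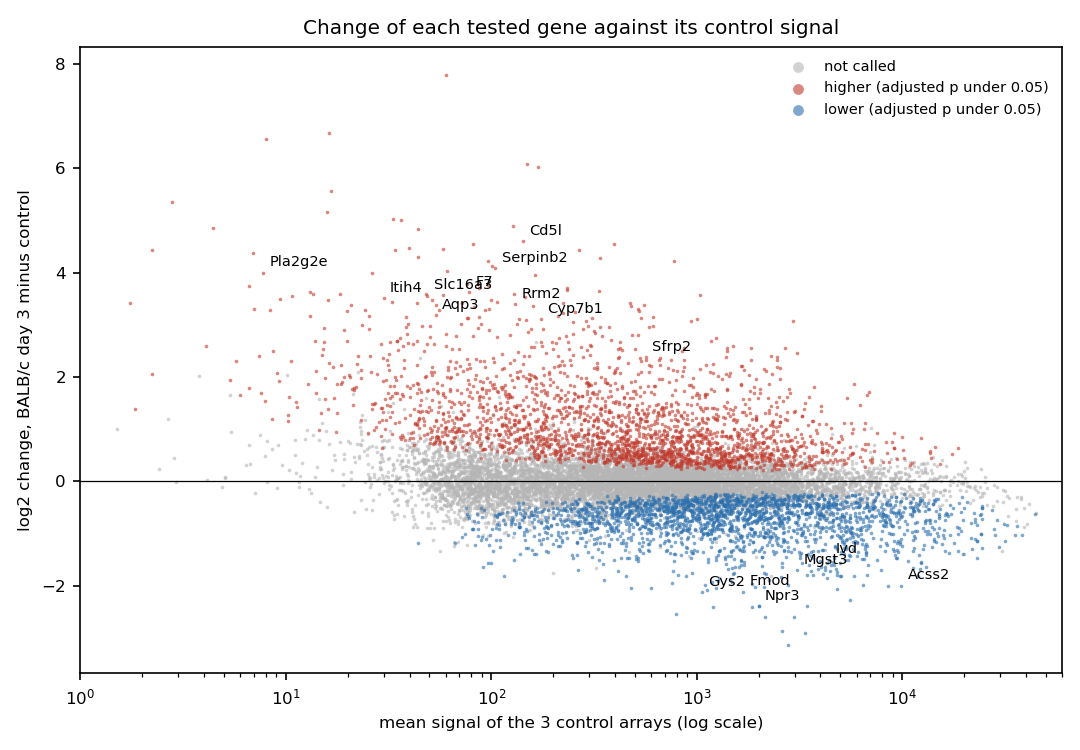
Log2 change of each of the 13016 tested genes (vertical axis) against its mean signal on the 3 control arrays (horizontal log axis). Red points were higher and blue points lower at an adjusted p under 0.05. Increases above 4 log2 units start mostly from dim control signals, whereas decreases crowd among genes with bright control signals.

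Beyond the chemokines, calprotectins and interferon-induced genes that are the usual markers of this inflammation, the largest increases from a measurable control level belonged to genes of macrophages, proteolysis, cell division and steroid oxidation. Cd5l, a secreted scavenger protein of tissue macrophages that sustains their survival and lipid handling, had signals of 3339.9, 4296 and 4182 on the treated arrays and 93.4, 138 and 196 on the controls. The gene rose by 4.60 ± 0.52 on the log2 scale (adjusted p = 1.2e-07). The rankings took only genes whose treated and control arrays did not overlap, which held for 54.3% of all genes tested. Serpinb2, the intracellular inhibitor of plasminogen activators, stood at 2579.6, 2205 and 1773 after pristane and at 115, 77.3 and 122 in the controls. It rose by 4.09 ± 0.52 (adjusted p = 9.6e-07). Adam8, a membrane metalloprotease of leukocytes, went from 159, 148 and 183 in the controls to 2648, 3236 and 2795, an increase of 3.96 ± 0.31 (adjusted p = 4.6e-10).

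Rnase2a belongs to the eosinophil-associated ribonucleases, a family of closely similar copies that a probe set may not fully separate. Its signals were 13475, 14376 and 9894 on the treated arrays and 1058, 1183 and 856 on the controls, which made it one of the brightest genes of the treated tissue, and it rose by 3.57 ± 0.37 (adjusted p = 4.2e-08). The eosinophil lectin receptor gene Siglecf also rose, by 2.14 ± 0.28. The granule genes that define eosinophils stayed under the dim filter of 103.7 on all 6 arrays, with highest signals of 28 after pristane and 35.7 in the controls for Epx, and 42.3 and 36.6 for Prg2. Of the 8 eosinophil markers on the array only 2 were tested, and Siglecf was the 1 that rose. The lipoxygenase gene Alox15 was at -1.43 ± 0.57 and did not pass the test. Alox15 did pass as a decrease under several other settings, such as all 7 BALB/c controls (-1.60, adjusted p = 0.0083). Both ribonuclease and lectin genes are also known from macrophages of some tissues.

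The oxysterol 7-alpha-hydroxylase gene Cyp7b1, which inactivates hydroxylated cholesterol, had signals of 1715, 1604 and 1466 on the treated arrays against 273, 106 and 144 on the controls. It rose by 3.11 ± 0.35 (adjusted p = 1.2e-07). Cyp1b1, a cytochrome P450 of oestrogen and retinoid oxidation, went from 1056, 934 and 834 to 8639.8, 7485 and 8254, an increase of 3.08 ± 0.30 (adjusted p = 1.0e-08). In both genes the lowest treated array was several times above the highest control array. Chl1, a cell adhesion molecule of nerve and other tissues, rose by 3.30 ± 0.35. Plek, the protein kinase C substrate of platelets and leukocytes, rose by 3.37 ± 0.21, and Csf3r, the receptor of granulocyte colony-stimulating factor, by 3.09 ± 0.26. The chemokine receptor gene Ccr1 rose by 3.66 ± 0.28. The remaining leaders serve mitosis and DNA synthesis: Cdca8 of the chromosomal passenger complex rose by 3.42, the ribonucleotide reductase subunit gene Rrm2 by 3.39, the securin gene Pttg1 by 3.38 and the topoisomerase gene Top2a by 3.12.

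Of all genes tested, Inmt (-3.14), Tmem45b (-2.91), Timp4 (-2.88) and Ccn5 (-2.60) fell furthest; like the best-known inflammation genes, these and several other leading genes of earlier results of these data were left out of the ranking that follows. The largest of the remaining decreases, among genes still measurable after treatment, were in metabolic, natriuretic and matrix genes. Npr3, the clearance receptor that removes natriuretic peptides and is abundant in fat, had signals of 348, 308 and 287 on the treated arrays and 1545, 3459.7 and 1011 on the controls. The controls varied more than the treated arrays, and Npr3 fell by 2.40 ± 0.65 (adjusted p = 0.005). Gys2, a glycogen synthase, fell by 2.12 ± 0.45, from 1088, 1007 and 1079.7 in the controls to 216, 318 and 161 (adjusted p = 0.00051). Acss2, which activates acetate to acetyl-CoA, was one of the brightest genes to fall this far, from 9460.5, 9395 and 10825 to 2653, 2931 and 1881, a change of -2.0 ± 0.57 (adjusted p = 0.007). Fmod, the collagen-binding proteoglycan fibromodulin, fell by 2.12 ± 0.29, from 1433, 1485 and 2149.6 to 329, 341 and 428 (adjusted p = 2.0e-06). Its treated arrays lay within a narrow band well under the controls.

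Others in this group were Mtarc1, a mitochondrial amidoxime reductase linked to lipid storage, which changed by -2.28, the muscle and fat membrane protein gene Tmem182 by -2.39, the intracellular water and glycerol channel gene Aqp11 by -2.02, the proprotein convertase gene Pcsk6 by -1.96 and Gchfr, the feedback regulator of tetrahydrobiopterin synthesis, by -1.98. The salivary-type amylase gene Amy1 fell by 2.0 ± 0.44. Its treated signals of 2143, 2121 and 2011 lay close together, although pancreatic markers were high on treated replicate 2 alone. Zfp383, a zinc finger gene, had the largest decrease of this ranking, a change of -2.59 ± 0.63, but also a wide spread, with treated signals of 252, 864 and 389 and control signals of 1976, 4442 and 2490.3. With all 7 BALB/c controls of the study in place of the 3 of the same run, its change was 0.31, so its decrease depends on the controls used.

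**Figure D2:**
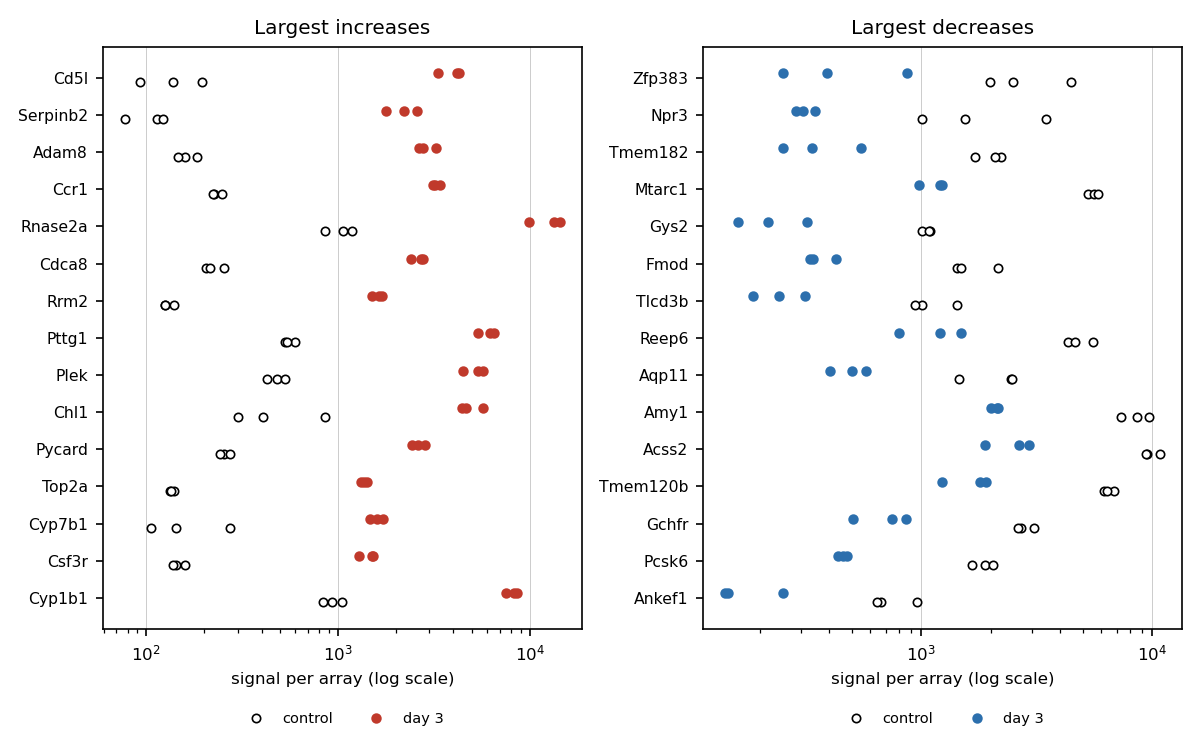
Signal on each of the 3 treated (filled) and 3 control (open) arrays, on a log axis, for the 15 largest increases (left) and the 15 largest decreases (right) outside the best-known inflammation genes and the other leading genes left out of the ranking. Treated and control points do not overlap for any of these 30 genes, which the choice of genes required.

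Among the 46 lists other than cell type markers, the lowest median was that of branched-chain amino acid breakdown. This is the mitochondrial route by which fat and muscle use leucine, isoleucine and valine. Of 25 genes tested, 21 fell and 1 rose, with a median of -1.04, against 17.2% lower among all genes. The transaminase gene Bcat2 changed by -1.36, the dehydrogenase complex genes Bckdha, Bckdhb and Dbt by -1.45, -1.35 and -1.41, and the leucine-branch genes Ivd and Mccc1 by -1.5 and -1.20. Ivd, isovaleryl-CoA dehydrogenase, had signals of 1468, 1669 and 1466 on the treated arrays against 3716, 4446 and 5102 on the controls (adjusted p = 3.2e-05). For Bckdha they were 1024, 975 and 928 against 2436, 3134 and 2589 (adjusted p = 9.3e-06). In both, the highest treated array was under the lowest control. The valine-branch genes Hibch and Aldh6a1 changed by -1.43 and -1.30, the propionate genes Pccb, Pcca and Mmut by -1.27, -1.19 and -1.17, and the mitochondrial carrier gene Slc25a44 by -1.06. The exception was Bcat1, the cytosolic transaminase, found in activated leukocytes and dividing cells, which rose by 1.56 ± 0.29. The kinase gene Bckdk, which switches the complex off, was at -0.10 ± 0.30 and its phosphatase gene Ppm1k at -0.51 ± 0.21, and neither passed the test.

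Fatty acid oxidation and the tricarboxylic acid cycle moved the same way. Of 33 genes of fatty acid oxidation and peroxisomes 29 fell and 1 rose (median -0.92), and of 25 cycle genes 23 fell and 0 rose (median -0.78). The trifunctional protein genes Hadha and Hadhb changed by -0.92 and -1.15, the medium-chain dehydrogenase gene Acadm by -1.11, the carnitine transferase gene Cpt2 by -1.24, and the peroxisomal genes Pxmp2 and Abcd2 by -1.71 and -1.61. Ppargc1a, the coactivator of mitochondrial biogenesis, changed by -1.20 ± 0.29, and the fatty acid receptor gene Ppara by -0.83 ± 0.24. Cpt1a, which admits fatty acids to the mitochondrion, was the gene that rose, by 0.42 ± 0.15. In the cycle the largest decreases were at its entry: pyruvate carboxylase (Pcx) changed by -1.39, and the pyruvate dehydrogenase genes Dlat, Pdhb and Pdha1 by -1.36, -1.33 and -1.0. Citrate synthase (Cs) had signals of 6426, 7417 and 6009.7 after treatment and 12308, 13492 and 13963 in the controls, a change of -1.0 ± 0.17 (adjusted p = 4.1e-05). Idh2, at 0.23 ± 0.11, and Sdhc, at -0.40 ± 0.24, were the cycle genes that did not pass the test. Ppargc1a missed the threshold with a dim filter of 519.2 (adjusted p = 0.44), as did Cpt1a without treated replicate 3, without control replicate 3, with all 7 BALB/c controls or with probe sets averaged (adjusted p of up to 0.48).

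Gene families defined by symbol alone showed how far this reached into mitochondria and peroxisomes. Of the families with at least 10 tested genes, the highest shares of decreases were in complex I subunits, with 11 of 13 Ndufa and 8 of 10 Ndufb genes lower, in coenzyme Q synthesis (9 of 11 Coq genes), in peroxins (10 of 14 Pex genes) and in inner-membrane import (9 of 14 Timm genes). Mitochondrial ribosomal proteins followed, with 25 of 47 Mrpl and 16 of 29 Mrps genes lower, and cytochrome oxidase with 13 of 24 Cox genes. Across these 8 families the genes that rose numbered 1, among the Mrps genes. The sizes were modest, with family medians from -0.28 for Mrpl to -0.76 for Pex.

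These decreases went with those of adipocyte markers. Of 16 adipocyte markers tested 12 fell and 0 rose, with a median of -1.21, and their mean log2 level was 12 to 12.2 on the treated arrays against 13.1 to 13.5 on the controls. The defining markers remained bright: Adipoq, the adipokine adiponectin, fell by 0.85 ± 0.29, from 27989, 39421 and 41133 to 18772, 18758 and 22018, and Fabp4, the adipocyte fatty acid carrier that macrophages also express, was at -0.60 ± 0.32 without passing the test. Fabp4 did pass with probe sets averaged (-0.95, adjusted p = 0.012) and under some other settings. The part of fat cell content in the metabolic decreases was not tested. Adipoq missed the threshold without treated replicate 1 or 2 or without control replicate 2 or 3 (adjusted p of up to 0.087).

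Detoxifying enzymes were lower more often than higher. Of 17 glutathione S-transferase genes 13 fell and 0 rose (median -0.73), led by Gsta3 (-1.80), Gstz1 (-1.48) and Gstm1 (-1.33); members of the Gstm cluster are similar in sequence and may share signal. Of 31 genes of the oxidative stress regulator NRF2 and of glutathione use, 12 fell and 4 rose (median -0.21). Mgst3, a membrane-bound transferase, changed by -1.71 ± 0.25, the phospholipid peroxidase gene Gpx4 by -1.0 ± 0.18 and catalase (Cat) by -0.96 ± 0.23. The cystine carrier gene Slc7a11, which supplies glutathione synthesis, rose by 0.92 ± 0.36. The classical NRF2 targets Nqo1, Gclm, Gclc and Srxn1 were at -0.21, -0.18, -0.13 and 0.20, and none of these 4 passed the test. Gclm did pass with probe sets averaged (-0.54, adjusted p = 0.0068) and Gclc with all 7 BALB/c controls (-0.46, adjusted p = 0.018). Cat missed the threshold with all 7 BALB/c controls (adjusted p = 0.11), as did Slc7a11 without treated replicate 1, 2 or 3, without control replicate 1 or 2 or under several other settings (adjusted p of up to 0.26).

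Among cytochrome P450, flavin monooxygenase and carboxylesterase genes 16 of 29 fell and 4 rose, with a median of -0.57. The carboxylesterase genes Ces1f and Ces1d changed by -1.82 and -1.82, and the flavin monooxygenase genes Fmo2 and Fmo1 by -1.79 and -1.42. The dioxin-inducible Cyp1a1 fell by 1.41 ± 0.33, in the same tissue in which its relative Cyp1b1 rose. Besides Cyp1b1 and Cyp7b1, the increases were in Cyp4f18 (1.72), the neutrophil enzyme that oxidises leukotriene B4, and in Cyp4f16 (1.0). Fmo2 missed the threshold with all 7 BALB/c controls (adjusted p = 0.0502).

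Retinoid and aldehyde dehydrogenase genes were higher in 9 of 30 cases and lower in 11 (median 0.10, or -0.38 with a dim filter of 519.2). The decreases held the alcohol dehydrogenase gene Adh1 with a change of -1.05, the capillary retinol-binding protein gene Rbp7 with -1.94, the plasma carrier gene Rbp4 with -1.47 and the retinol saturase gene Retsat with -0.70. The increases held genes of retinoic acid synthesis, binding and sensing: the retinol dehydrogenase gene Rdh10 by 2.33 ± 0.27, the synthetic enzyme gene Aldh1a2 by 0.87 ± 0.23, the carrier gene Crabp2 by 1.80 ± 0.29 and the receptor genes Rara and Rarb by 1.52 and 0.68. Rdh10 had signals of 4296, 2935 and 4522 on the treated arrays and 679.9, 714 and 851 on the controls, without overlap. The transport receptor gene Stra6 (0.96 ± 0.45) and the synthetic enzyme genes Aldh1a1 (0.18 ± 0.11) and Aldh1a3 (0.32 ± 0.32) did not pass the test. Retsat missed the threshold without treated replicate 1, 2 or 3, without control replicate 2 or 3, with an ordinary linear model or with probe sets averaged (adjusted p of up to 0.12), as did Rara with all 7 BALB/c controls (adjusted p = 0.16).

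Receptors that set the activation threshold of myeloid cells were mostly higher. Of 28 paired activating and inhibitory receptor genes tested, including their adaptors, 21 rose and 1 fell, with a median of 1.71, against 18.3% higher among all genes. Activating members rose, such as Trem1 (3.55), which amplifies inflammatory signals, and Trem2 (3.43), the lipid sensor of macrophages, with their shared adaptor gene Tyrobp (2.22). Inhibitory members rose as well, among them Cd300lf (3.34), Cd300a (1.99), Pirb (1.96), Siglece (1.67), Pilra (1.74) and Sirpa (1.63), which carry inhibitory motifs in their tails. Treml2 rose by 2.90 ± 0.29 and the CD200 receptor family genes Cd200r1 and Cd200r4 by 2.11 and 2.64. The gene that fell was Cd300lg, with a change of -1.49 ± 0.30, the family member expressed by endothelium. Cd300lf had signals of 979.8, 1029 and 1143 on the treated arrays and 62.8, 81.7 and 102 on the controls, so it went from under the dim filter to a clear signal.

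Downstream of such receptors, 23 of 24 signalling adaptor and kinase genes of leukocytes rose and 0 fell (median 1.68). The Src-family kinase gene Fgr rose most, by 3.29 ± 0.28, followed by the adaptor gene Lcp2 (2.67), the phosphatase gene Ptpn6 (2.61), which executes inhibitory receptor signals, and the small GTPase gene Rac2 (2.20). The tyrosine kinase genes Syk and Btk rose by 1.66 and 1.55, and the lipid phosphatase gene Inpp5d by 1.85. Pik3cd, at -0.95 ± 0.38, did not pass the test, and its 4 probe sets disagreed, from -0.95 to 2.05. The leukocyte common antigen gene Ptprc rose by 1.80 ± 0.22, from 1649.5, 1937 and 2134 in the controls to 5878, 6489 and 7735.

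Actin genes of migration and phagocytosis moved with them, with 22 of 28 higher and 2 lower (median 0.71). The leukocyte-restricted members had the larger increases, such as Lcp1 (2.49), Myo1f (2.46), Nckap1l (2.16), Capg (2.13) and Was (1.82). Members expressed in most cells rose less, among them the Arp2/3 subunit genes Arpc2 (0.75) and Arpc5 (0.76), Cfl1 (0.44) and Pfn1 (0.43). The actin-severing Gsn, which fat and fibroblasts express strongly, fell by 1.03 ± 0.23. Integrins divided in the same manner, with 8 of 22 higher and 2 lower. The leukocyte chain genes Itgb2, Itgax, Itgam and Itgal rose by 2.59, 2.16, 2.15 and 1.43, the widely expressed Itgb1 and Itgav were at -0.06 and 0.14 without passing the test, and Itga8 and Itga6 changed by -1.18 and -0.60. Itga6 missed the threshold without treated replicate 1 or without control replicate 2 (adjusted p of up to 0.066).

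Cell markers moved with these groups. Of 14 monocyte markers 11 rose and 0 fell (median 1.60), with a mean log2 level of 11.2 to 11.5 on the treated arrays and 9.34 to 9.47 on the controls. Of 15 neutrophil granule and surface markers 10 rose and 0 fell (median 2.15), with levels of 9.37, 10.1 and 9.06 on the treated arrays and 6.80 to 7.05 on the controls. Granule genes of immature neutrophils such as Mpo (0.59 ± 0.93) and Elane (0.29 ± 0.88) did not pass the test, whereas receptor genes of mature cells such as Cxcr2 rose (2.50 ± 0.47). Of 14 resident peritoneal macrophage markers 7 rose and 2 fell (median 0.32). Among them Gata6, which specifies these cells, rose by 0.41 ± 0.12 and Timd4 was at 0.22 ± 0.30 without passing the test. The list also counts the acute-phase gene Saa3 and Cd5l, its largest increase (4.60). Its lowest member, Alox15 (-1.43), did not pass the test. The part of cell content in the leukocyte gene groups was not tested. Gata6 missed the threshold without treated replicate 1, without control replicate 2 or with all 7 BALB/c controls (adjusted p of up to 0.12).

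Inflammasome and cell death genes were higher in 14 of 18 cases and lower in 2 (median 1.33). The adaptor gene Pycard, which joins sensors to caspase-1, rose by 3.24 ± 0.25, from 255, 242 and 273 to 2611, 2850.2 and 2449 (adjusted p = 3.0e-10). The nucleic acid sensor gene Zbp1 rose by 3.35 ± 0.27. Genes of the necroptosis branch, Ripk3 and Mlkl, rose by 1.93 and 1.36, the pyrin gene Mefv by 1.87, Nlrp3 by 1.63 and the lipopolysaccharide-sensing caspase gene Casp4 by 1.89. The executioner gene Gsdmd rose by 1.32 ± 0.16, while Gsdme, another pore-forming gasdermin gene, fell by 0.89 ± 0.29. Gsdme missed the threshold without treated replicate 3, without control replicate 2 or 3 or with probe sets averaged (adjusted p of up to 0.1).

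Feedback genes of inflammatory signalling led the NF-kB and cytokine lists. In the NF-kB list 11 of 18 genes rose and 0 fell (median 0.87). The atypical inhibitor gene Bcl3 rose by 2.74 ± 0.29, the kinase gene Ikbke by 2.53 ± 0.20, Nfkbie by 1.98 ± 0.32 and Tnfaip3, the ubiquitin-editing inhibitor A20, by 1.83 ± 0.20. The subunit genes Nfkb2 and Relb rose by 1.36 and 1.27, and Rela (0.14), Rel (0.58) and the kinase gene Ikbkb (0.19) did not pass the test. Among SOCS and STAT genes 9 of 19 rose and 1 fell (median 0.31): Socs3, the inhibitor of interleukin-6 and G-CSF signals, rose by 2.95 ± 0.32, Stat2 by 1.54, Stat3 by 0.96 and Stat6 by 0.75, and Stat5a fell by 0.71. Of 24 MAP kinase phosphatase and immediate early genes 10 rose and 1 fell (median 0.52), with Ier3 (1.94), Egr2 (1.92), Junb (1.84) and Fos (1.66) among the increases and Dusp4 (-1.05) as the decrease. Dusp1, the usual early phosphatase, was at -0.19 ± 0.22 and did not pass the test. In the TNF superfamily 6 of 22 rose and 0 fell, among them the costimulatory receptor gene Cd40 (2.14) and Tnfrsf21 (1.47). Stat5a missed the threshold without treated replicate 1 or without control replicate 3 (adjusted p of up to 0.071), as did Dusp4 without control replicate 1 or 3 (adjusted p of up to 0.055).

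The genes of 2 clotting factors normally made by the liver, F7 and F10, rose. Of 21 coagulation and fibrinolysis genes tested, 11 rose and 2 fell, with a median of 0.47, or 0.17 when all probe sets of a gene were averaged. F7, factor VII, which starts clotting with tissue factor, had signals of 718, 1930.3 and 1309 on the treated arrays and 55, 78.8 and 100 on the controls. It went from under the dim filter on every control to a clear signal on every treated array and rose by 3.62 ± 0.49 (adjusted p = 2.1e-06). F10, factor X, had signals of 796, 1029 and 762 against 99.9, 149 and 158 and rose by 2.48 ± 0.31. The factor XIII A chain gene F13a1, a macrophage product, rose by 1.5 ± 0.21. Macrophages are known to make each of these 3 proteins. The genes of other liver factors, F8, F9, F11, F12, Fga, Fgb, Fgg, Plg, Serpinc1 and Proc, were under the dim filter on all 6 arrays. Tissue factor itself, F3, was at -0.70 ± 0.32 and did not pass the test.

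The fibrinolytic arm changed on both sides. The urokinase gene Plau and its receptor gene Plaur rose by 1.28 and 1.67, and their inhibitor gene Serpinb2 by 4.09. Tfpi2, a matrix-bound protease inhibitor, rose by 2.06 ± 0.28. The genes that fell were the vessel-wall genes Vwf (-0.79) and Thbd (-0.71), the platelet adhesion factor and the anticoagulant receptor of endothelium. Serpins and cystatins in general were higher in 8 of 18 cases and lower in 1 (median 0.65). Their leaders were the stefin genes Stfa2l1 (4.86) and Stfa3 (3.63), close copies of neutrophils whose signals may not be separable, and the acute-phase gene Serpina3n (2.11). Thbd missed the threshold without treated replicate 1, without control replicate 3 or with all 7 BALB/c controls (adjusted p of up to 0.24).

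In the hyaluronan system more genes rose than fell. Hyaluronan is the long sugar polymer that swells inflamed matrix and binds leukocytes. Of 16 genes tested 9 rose and 1 fell (median 1.25). The synthase gene Has1 had treated signals of 1043, 310.2 and 1063 and control signals of 80.2, 149.6 and 109.8. It rose by 2.43 ± 0.40 (adjusted p = 3.5e-05). Its spread among treated arrays, 1.70 log2 units, was one of the widest among the genes of the ranking that rose. The hyaluronan receptor gene Cd44 rose by 2.56 ± 0.23, and the binding proteoglycan gene Vcan, versican, by 2.30 ± 0.29. Genes of the inter-alpha-trypsin inhibitor heavy chain family, counted in this list, moved apart. Itih4 rose by 3.52 ± 0.86, from 4.9, 45.5 and 39.2 to 742, 644 and 370.2, and Itih5, an adipose member, fell by 1.31 ± 0.31. Ambp, whose product bikunin carries heavy chains of this family, rose by 1.93 ± 0.58. The transfer enzyme gene Tnfaip6 was at 0.30 ± 0.29 and did not pass the test. Hmmr, a hyaluronan-binding protein that also serves the mitotic spindle, rose by 2.63 ± 0.34. Ambp missed the threshold with all 7 BALB/c controls (adjusted p = 0.14).

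Proteases of versican and other proteoglycans rose too. Among ADAM and ADAMTS genes 11 of 27 rose and 0 fell (median 0.41), including the aggrecanase-type genes Adamts15 (2.13), Adamts4 (1.97) and Adamts9 (0.82) and the sheddase gene Adam17 (1.31), which releases TNF. By symbol, the Adamts family was higher in 8 of 13 genes. Small proteoglycans and glycoproteins were lower in 10 of 36 cases and higher in 5 (median -0.37), against 17.2% and 18.3% of all genes. Fmod fell, as did Smoc1 (-1.47), Omd (-1.23) and Podn (-0.96). Emilin1 (1.60), Emilin2 (1.45) and Thbs1 (1.44) rose. The abundant Dcn and Lum were at -0.39 ± 0.21 and -0.0 ± 0.14 and did not pass the test. Basement membrane genes were near the background, with 3 of 27 higher and 3 lower. Omd missed the threshold without treated replicate 2 (adjusted p = 0.058), as did Thbs1 with all 7 BALB/c controls (adjusted p = 0.088).

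Iron genes rose in 12 of 26 cases and fell in 2, with a median of 0.52. Hmox1, the haem oxygenase that frees iron from haem, rose by 2.93 ± 0.27. The haem and haemoglobin scavenger genes Hpx, Hp and Cd163 rose by 1.49, 1.70 and 1.30, and the siderophore-binding Lcn2 by 4.28. Hmox1 had signals of 1750.0, 1804 and 1081 on the treated arrays and 146, 204 and 183 on the controls, without overlap. Import genes rose: the carrier gene Slc39a14 by 2.07 ± 0.35 and the reductase genes Steap1 and Steap2 by 2.25 and 1.38. The exporter gene Slc40a1 (0.54 ± 0.28), the transferrin receptor gene Tfrc (0.43 ± 0.19) and the ferritin gene Fth1 (-0.29 ± 0.29) did not pass the test. Each did pass under some other setting. Tfrc was at 0.90 with probe sets averaged (adjusted p = 0.00053) and at 0.82 with all 7 BALB/c controls (adjusted p = 0.0015). Heph, the oxidase that helps iron leave cells, fell by 1.25 ± 0.31.

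Genes of lipid scavenging rose while several genes of lipid uptake and transport by fat fell. Among cholesterol efflux and liver X receptor (LXR) target genes 7 of 24 rose and 7 fell, with a median of -0.40, or -0.13 after quantile normalization. The receptor gene of oxidised lipoprotein, Olr1, rose by 4.0 ± 0.36, from 23.9, 18.2 and 36.8 to 820.0, 924 and 635. The scavenger receptor gene Msr1 rose by 3.71 ± 0.28, the lysosomal lipase gene Lipa by 1.16 ± 0.23 and the efflux carrier gene Abcg1 by 1.52 ± 0.16. Ch25h, which makes 25-hydroxycholesterol, had signals of 1739, 937 and 1524 on the treated arrays and 100.2, 77.6 and 123 on the controls and rose by 3.48 ± 0.38 (adjusted p = 6.6e-08), beside the rise of Cyp7b1, which degrades that oxysterol. The receptor gene itself, Nr1h3, changed by -0.89 ± 0.19, the fatty acid carrier gene Cd36 by -1.11 ± 0.22 and Apoe by -0.66 ± 0.23. Abca1, another efflux carrier, was at -0.21 ± 0.17 without passing the test. In cholesterol synthesis 8 of 20 genes fell and 2 rose (median -0.47), with the feedback regulator gene Insig1 at -1.13 and the lanosterol synthase gene Lss at -1.10 among the decreases, whereas the transcription factor gene Srebf2 rose by 0.57 ± 0.16 and the entry enzyme genes Hmgcs1 (0.14) and Sqle (0.39) did not pass the test. Apoe missed the threshold without treated replicate 1 or 2, without control replicate 2 or 3 or with quantile normalization (adjusted p of up to 0.16), as did Insig1 without treated replicate 3, without control replicate 2 or with all 7 BALB/c controls (adjusted p of up to 0.14). Lss missed the threshold without treated replicate 3 (adjusted p = 0.059), as did Srebf2 without control replicate 3 (adjusted p = 0.062).

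Hormone and growth factor genes were lower more often than higher. Among nuclear receptors 11 of 29 fell and 4 rose (median -0.35), with the adipocyte regulator gene Pparg (-1.54) and the oestrogen receptor gene Esr1 (-1.12) lower and the vitamin D receptor gene Vdr (1.15) higher with Rara. Glucocorticoid and FOXO responsive genes fell in 12 of 29 cases and rose in 4 (median -0.27). Depp1 (-2.41), Zbtb16 (-1.49), Klf15 (-1.46) and Tsc22d3 (-0.95) fell, and the receptor gene Nr3c1 fell by 0.50 ± 0.17. The metallothionein gene Mt2 (2.39) and Cebpd (1.66), which inflammatory cytokines also induce, rose. In the insulin-like growth factor axis 7 of 20 fell and 2 rose, among them the insulin signalling genes Irs1 (-1.41) and Insr (-0.76) and the binding protein gene Igfbp2 (-1.09), while Igf1 (0.05 ± 0.20) did not pass the test. Vdr missed the threshold without control replicate 1 or with probe sets averaged (adjusted p of up to 0.071), as did Tsc22d3 with all 7 BALB/c controls (adjusted p = 0.71). Nr3c1 missed the threshold without treated replicate 1 or 2 or without control replicate 1 or 3 (adjusted p of up to 0.066), as did Igfbp2 without treated replicate 1 or 2 or without control replicate 3 (adjusted p of up to 0.13).

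Vessel growth factors and their receptors fell on both sides. Of 39 EGF, FGF, PDGF, VEGF and angiopoietin genes 12 fell and 2 rose (median -0.14). Vegfb changed by -1.79 ± 0.21 and Vegfa by -1.04 ± 0.20, the receptor genes Kdr and Flt1 by -1.23 and -0.65, the angiopoietin receptor gene Tek by -0.78 and its ligand gene Angpt1 by -0.90. Nrg4, a factor secreted by fat, fell by 1.62 ± 0.37. The genes that rose were Pdgfra (1.15), the receptor of mesenchymal cells, and Egfr (1.02). Endothelial and lymphatic vessel markers fell in 12 of 19 cases and rose in 2 (median -0.67), with a mean log2 level of 10.04 to 10.1 on the treated arrays and 10.5 to 10.7 on the controls. The genes that rose were the lymphatic markers Lyve1 (1.61) and Pdpn (1.26), both of which macrophages or stromal cells also express, and Flt4 (-0.42), Reln (-0.91) and Mmrn1 (-0.86), further lymphatic markers, fell. The part of vessel content in the growth factor decreases was not tested. Vegfa missed the threshold with all 7 BALB/c controls (adjusted p = 0.052), as did Nrg4 with all 7 BALB/c controls (adjusted p = 0.14). Flt4 missed the threshold without treated replicate 1 or 2, without control replicate 2, with all 7 BALB/c controls or with probe sets averaged (adjusted p of up to 0.67).

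Of 29 WNT ligand, receptor and antagonist genes 4 rose and 4 fell (median -0.08), against 18.3% and 17.2% of all genes. The secreted antagonist gene Sfrp2 rose by 2.38 ± 0.27, from 433, 633 and 628 to 3517, 3231 and 2358 (adjusted p = 1.2e-07), Wnt4 by 1.66 ± 0.23 and Sfrp4 by 1.06 ± 0.27, and the receptor gene Fzd4 fell by 1.16 ± 0.30. Among BMP, TGF-beta and activin genes 4 of 36 rose and 11 fell (median -0.07): the BMP-binding Bmper rose by 2.17 ± 0.29 and Tgfb1 by 1.01 ± 0.29, and Bmp4 (-0.83), Bmp6 (-0.85), Gdf10 (-1.16) and the BMP targets Id1 (-0.92) and Id3 (-1.07) fell. Guidance genes were higher in 8 of 35 cases and lower in 8, near the shares of all genes. Their increases held the leukocyte semaphorin gene Sema4d (1.40) and its receptor gene Plxnb2 (1.41), and their decreases the vessel genes Sema3g (-1.14) and Robo4 (-0.87). Tgfb1 missed the threshold with probe sets averaged (adjusted p = 0.15), as did Bmp4 without treated replicate 2 or 3 or without control replicate 1 or 3 (adjusted p of up to 0.073).

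Carriers of glucose and lactate moved in both directions. Of 19 tested 8 rose and 5 fell (median 0.41). Slc16a3, the lactate exporter of glycolytic cells, went from 40.3, 57 and 49.2 in the controls to 847, 942 and 749 and rose by 3.56 ± 0.24 (adjusted p = 5.9e-11). Slc2a4, the insulin-regulated glucose carrier of fat and muscle, had signals of 1248, 1634 and 1405 on the treated arrays against 4829.5, 4779 and 5572 on the controls and fell by 1.81 ± 0.37 (adjusted p = 0.00041). The leukocyte carrier gene Slc2a6 rose by 1.72 ± 0.28 and the general carrier gene Slc2a1 by 0.96 ± 0.19.

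Of 32 channel genes 8 were higher and 7 lower, near the 18.3% and 17.2% of all genes. The water and glycerol channel gene Aqp3 had signals of 813, 665 and 525 on the treated arrays and 38.4, 34.3 and 87.9 on the controls and rose by 3.19 ± 0.38 (adjusted p = 3.3e-07), whereas the adipocyte glycerol channel gene Aqp7 fell by 1.88 ± 0.54. The calcium-activated potassium channel gene Kcnn4 of leukocytes rose by 2.25 ± 0.34, and the two-pore channel gene Kcnk13 by 1.71 ± 0.21, while Kcnk3 fell by 1.01 ± 0.36. Among purinergic, prostanoid, peptide and related receptor genes 15 of 26 rose and 3 fell (median 0.89). The formyl peptide receptor gene Fpr2 rose by 3.54 ± 0.24, Gpr35 by 3.27 ± 0.32, the ATP-gated P2rx7 by 1.61 ± 0.22 and the nucleotide receptor gene P2ry6 by 1.72 ± 0.17. The endothelin receptor gene Ednrb rose by 1.52 ± 0.22; with Npr3, the angiotensin precursor gene Agt (-1.34) and the lipolysis-inhibiting prostaglandin receptor gene Ptger3 (-0.86) fell. Of 25 junction genes 4 rose and 5 fell, again near the shares of all genes, including the endothelial claudin gene Cldn5 (-1.5) among the decreases and Cldn3 (2.40) and the N-cadherin gene Cdh2 (1.58) among the increases. Kcnk3 missed the threshold without treated replicate 1, 2 or 3 or without control replicate 1 or 2 (adjusted p of up to 0.075), as did Agt without treated replicate 3 or without control replicate 3 (adjusted p of up to 0.079). Cldn3 missed the threshold without treated replicate 1 or 3, without control replicate 1 or 2, with all 7 BALB/c controls or with probe sets averaged (adjusted p of up to 0.13).

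The DNA precursor genes that rose included those of salvage and of ribonucleotide reduction. Of 26 nucleotide genes 10 rose and 1 fell (median 0.30). Thymidine kinase (Tk1), which recycles thymidine in dividing cells, had signals of 1075, 1069.6 and 786 on the treated arrays and 60.4, 51.9 and 62.2 on the controls and rose 12-fold on the scale of signal plus offset (adjusted p = 4.3e-07). Rrm2 rose with its partner subunit gene Rrm1 (1.38), the deoxycytidine kinase gene Dck by 2.67 ± 0.27, the uridine phosphorylase gene Upp1 by 1.65 ± 0.35, Samhd1, which degrades deoxynucleotides, by 1.48 ± 0.23, and the CTP synthase gene Ctps by 1.32 ± 0.24. The de novo purine genes Ppat (0.36), Gart (-0.19), Pfas (-0.09), Paics (-0.05), Adsl (-0.03) and Atic (0.12) and the de novo pyrimidine genes Cad (0.24) and Umps (0.43) did not pass the test. The thymidylate synthase gene Tyms was too dim to be tested, with highest signals of 70 after treatment and 8 in the controls. Dhodh, the mitochondrial pyrimidine enzyme, fell by 0.61 ± 0.23, but its change was 0.24 with all 7 BALB/c controls. Dhodh missed the threshold without treated replicate 1, 2 or 3, without control replicate 3 or under several other settings (adjusted p of up to 0.29).

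Chromatin assembly genes rose in 12 of 16 cases and fell in 0 (median 1.07), with the DNA methylation maintenance gene Uhrf1 (3.13), the remodeller gene Hells (2.22) and the histone chaperone gene Asf1b (2.02) in the lead. By symbol, 7 of 10 Mcm genes, most of them replication helicase subunits, rose. Ribosome biogenesis moved far less, with 6 of 30 higher and 1 lower (median 0.10), against 18.3% and 17.2% of all genes. Nop58 rose by 0.80 ± 0.15 and Npm1 by 0.51 ± 0.12. Of 23 p53 targets and apoptosis regulators 10 rose and 3 fell (median 0.28). Birc5, survivin, rose by 3.78 ± 0.35, Pmaip1 by 2.31 ± 0.25, the cycle inhibitor gene Cdkn1a by 1.42 ± 0.31 and Bcl2l11 by 1.09 ± 0.13, and Phlda3 fell by 1.42 ± 0.33. Pmaip1 and Bcl2l11 encode death-promoting BH3 proteins, whereas Mcl1, which restrains such proteins, rose by 0.56 ± 0.12.

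Of 33 ATF4 and amino acid supply genes 6 rose and 9 fell (median 0.08), against 18.3% and 17.2% of all genes. The serine synthesis genes Phgdh, Psat1 and Psph changed by -1.80, -0.76 and -0.70, the asparagine synthetase gene Asns by -1.04 and the glutamine carrier gene Slc1a5 by -1.26. Slc7a2, the inducible arginine carrier of macrophages, rose by 2.43 ± 0.54, from 188, 292 and 274 to 1705, 1950.0 and 896, and the proline synthesis gene Aldh18a1 by 1.48 ± 0.51. The stress genes Atf4 (0.19), Ddit3 (0.08) and Trib3 (-0.43) did not pass the test. In tryptophan and NAD use 3 of 18 rose and 3 fell, close to the shares of all genes: the tryptophan oxygenase gene Tdo2 rose by 2.06 ± 0.50, the kynurenine hydroxylase gene Kmo by 1.76 ± 0.25 and the NAD-consuming ectoenzyme gene Bst1 by 1.72 ± 0.19, and Nampt, which recycles NAD, fell by 0.62 ± 0.23, but was at 0.24 with all 7 BALB/c controls. Of 14 polyamine genes 2 rose and 1 fell; Odc1, the entry enzyme downstream of arginase, was at 0.21 ± 0.28 and did not pass the test. Asns missed the threshold without treated replicate 1, 2 or 3, without control replicate 2 or 3 or with probe sets averaged (adjusted p of up to 0.073), as did Aldh18a1 without treated replicate 1 or without control replicate 2 or 3 (adjusted p of up to 0.081). Nampt missed the threshold without treated replicate 1 or 2, without control replicate 1, 2 or 3 or with median centring (adjusted p of up to 0.12).

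Of 28 heat shock and cytosolic chaperone genes 1 rose and 3 fell, with a median of -0.10 that became 0.11 with all 7 BALB/c controls, and the inducible Hspa1a (-0.10 ± 0.33) and Hspa1b (0.19 ± 0.36) did not pass the test. Among autophagy and mTORC1 regulators 13 of 31 fell and 3 rose (median -0.27), with the mTOR inhibitor gene Deptor (-1.32) and the cargo receptor gene Sqstm1 (-0.68) lower and the lysosomal transcription factor gene Mitf (0.89) higher. Of 15 S100 and annexin genes outside the calprotectins 5 rose, led by S100a4 (2.04), and 1 fell. Smooth muscle and pericyte markers were called in 1 of 16 cases, Notch3 (-0.56). Mesothelial markers rose in 2 of 16 cases and fell in 4 (median 0.03). Notch3 missed the threshold without control replicate 2 or 3 or with all 7 BALB/c controls (adjusted p of up to 0.5).

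**Figure D3:**
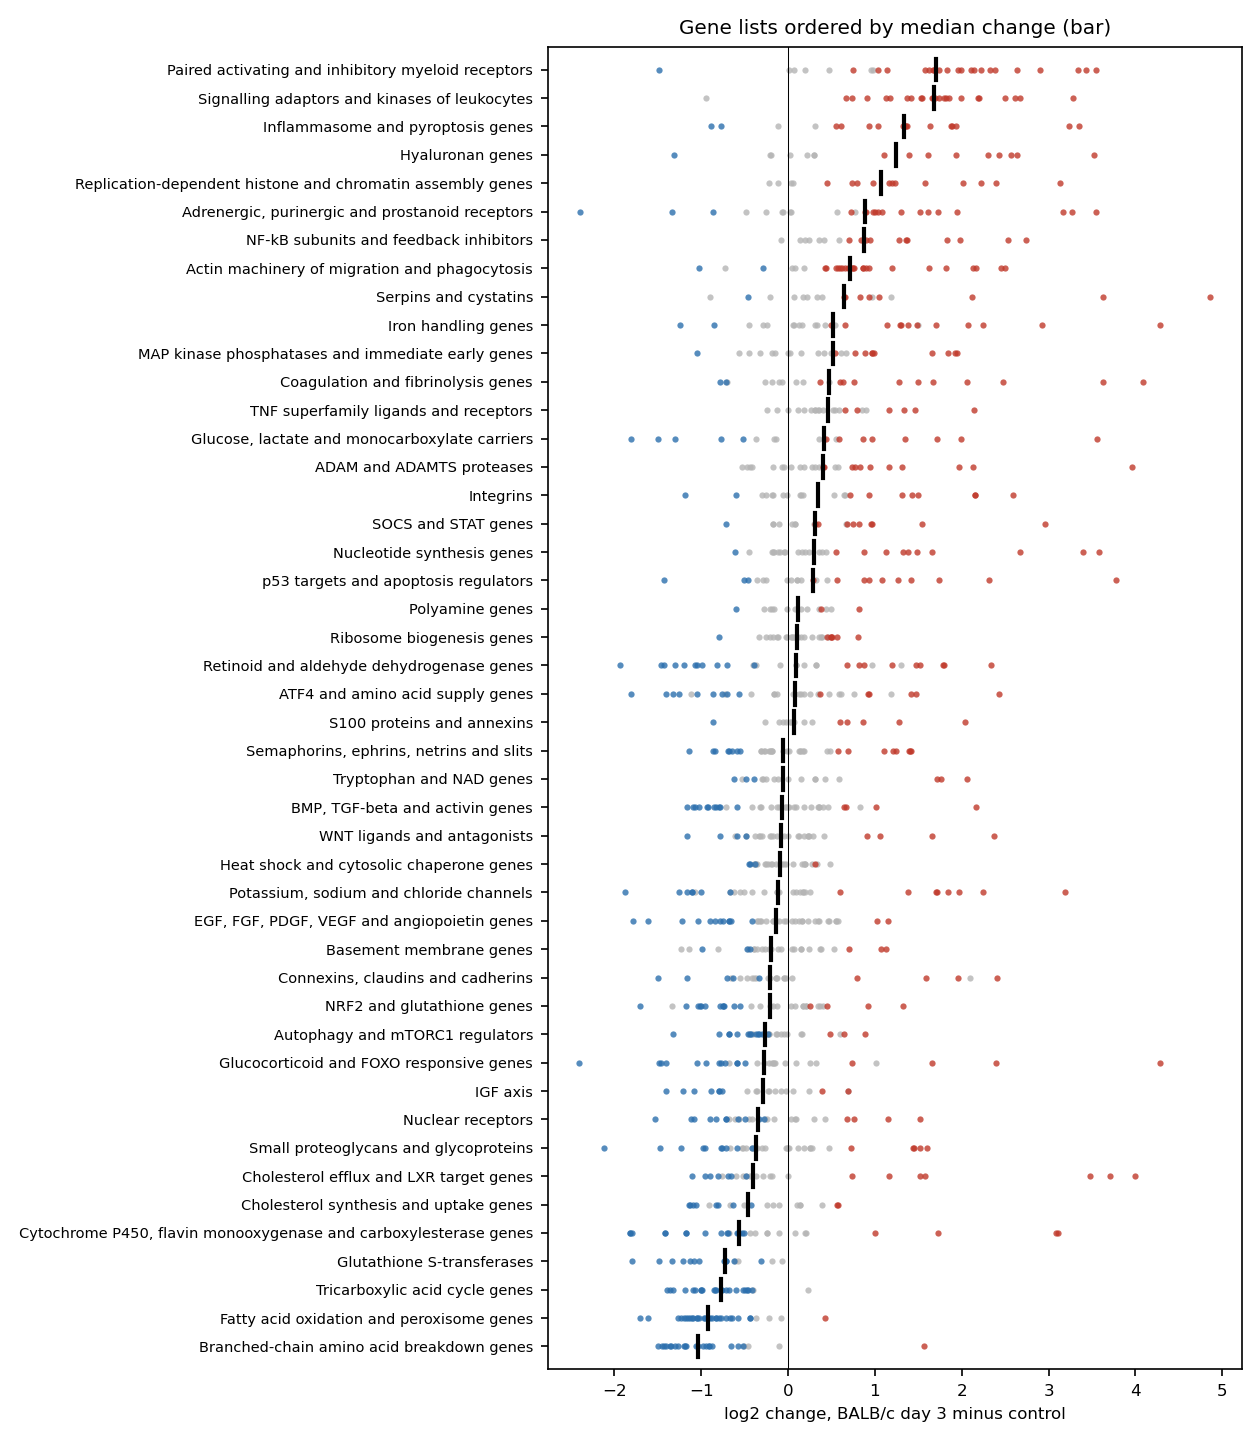
Log2 change of every tested member of 46 gene lists other than cell type markers, ordered by the list median (black bar). Red members were higher, blue members lower and grey members did not pass the test at an adjusted p of 0.05. Medians run from -1.04 for branched-chain amino acid breakdown to 1.71 for paired myeloid receptors.

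Markers of lymphocytes and other resident cells gave smaller or mixed changes. Of 16 T and NK cell markers 6 rose and 0 fell (median 0.58), with the granzyme genes Gzma (1.85) and Gzmb (1.83) above the receptor chain gene Cd3d (0.95). Of 12 B cell markers 0 rose and 3 fell (median 0.04), one of them Ebf1 (-1.35), which adipocyte precursors share; the coreceptor genes Cd79a (-0.14) and Ms4a1 (0.10) did not pass the test. Plasma cell markers rose in 7 of 12 cases and fell in 0 (median 1.30, or 0.67 with all 7 BALB/c controls). Their changes ran from -0.49 for the transcription factor gene Irf4, which did not pass the test, to 2.35. The part of plasma cell content in this count was not tested. Dendritic cell markers rose in 7 of 15 cases (median 0.30), mast cell markers in 1 of 9 and fibroblast markers in 4 of 20, with 4 lower. Of all genes 18.3% rose and 17.2% fell, so the fibroblast counts were near these shares and the mast cell count did not exceed them. Among fibroblast genes Col1a1 rose by 1.46 ± 0.29 and Pdgfra as above, and Inmt, a methyltransferase of quiescent stroma, fell by 3.14 ± 0.52. Intestinal epithelial markers, which would mark attached gut, had mean log2 levels of 6.32 to 6.42 on the treated arrays and 6.65 to 7.12 on the controls, and 0 of 15 passed the test. Cd3d missed the threshold without treated replicate 1, 2 or 3, without control replicate 2 or 3 or under several other settings (adjusted p of up to 0.19).

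Of all genes tested, 37 were at or under the dim filter on every control array and above 519.2, the upper quartile of all signals, on every treated array. The converse pattern was found for 0 genes. Apart from the genes left out of the ranking, the brightest of them after treatment were Chil1, a chitinase-like protein of macrophages and neutrophils, with treated signals of 1674, 1576 and 2039.5 and control signals of 11.1, 62.9 and 25.6, and Slc15a3, an endolysosomal histidine and peptide carrier, with 1121, 1202 and 1552 against 70.8, 27.8 and 33.1. Chil1 and Slc15a3 rose by 5.03 ± 0.38 and 4.30 ± 0.27. Birc5, Ube2c, Tk1, Pbk, Nusap1 and Uhrf1 of dividing cells, F7, Slc16a3, Aqp3, Olr1 and Fgr were in the same set. So was Ptx3, a soluble pattern receptor of innate immunity, with 1024, 878 and 688 against 93.3, 54.4 and 80.9, which rose by 3.14 ± 0.29. Nearly all of these genes have dim control signals, so their log2 sizes depend on the offset.

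The 3 treated arrays were not alike for every gene that changed. The widest ranges among called genes in the ranking were 2.36 log2 units for Trim30d, 2.27 for Cd209e, 1.70 for Has1, 1.69 for Cd28 and 1.68 for Zfp383. Trim30d, an interferon-induced gene with close copies, had treated signals of 168, 81.3 and 521 and control signals of 22.8, 22.5 and 21.4. Cd209e, a lectin receptor gene of the DC-SIGN family, had 884, 802 and 163 against 62.1, 67.5 and 64.4. Cd28, the T cell costimulatory receptor gene, had 33.1, 59.1 and 163 against 9.7, 15.5 and 8.7 and did not pass the test without treated replicate 3 (adjusted p = 0.086). In these genes the spread among treated arrays was of the order of the change itself.

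The response was compared with 3 other pristane responses of the study, each measured against controls of its own strain and run, so no array is shared: the DBA strain at day 3, the F1 at day 3 and BALB/c at day 18. Few differences passed the test. They numbered 64 genes (0.492%) against DBA, 48 of them with the BALB/c change above and 16 below, 31 genes (0.238%) against F1, 7 above and 24 below, and 47 genes (0.361%) against day 18, 17 above and 30 below. Differences at an unadjusted p under 0.05 numbered 1285, 1139 and 1508. These counts depend on 1 control array of the BALB/c day 18 run, the least correlated control: without it they were 200, 164 and 110. That array enters the DBA and F1 differences only through the shared spread, and the day 18 difference also through the day 18 change itself. With array weights they were 929, 715 and 547, and with only the 18 arrays of the day 3 run 326 against DBA and 281 against F1. With single arrays of this comparison left out they ran from 23 to 68, 10 to 57 and 19 to 48. The lowest counts came without treated replicate 1 against DBA (23) and day 18 (19) and without treated replicate 2 against F1 (10). Other counts more than 1.5 times away were 32, without treated replicate 3, and 34 and 30, without control replicates 1 and 2, against DBA. A count of 64 becoming 42 without control replicate 3 was just beyond that margin. Against F1 they were 13 and 57 without treated replicates 1 and 3, and 15 and 17 without control replicates 1 and 3. Against day 18 they were 24 without treated replicate 2 and 27 and 31 without control replicates 1 and 2.

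Pla2g2e, a secreted phospholipase A2 that hydrolyses lipoprotein and membrane phospholipids, had the largest difference above DBA. Its signals were 675, 547 and 325 on the BALB/c day 3 arrays and 10.2, 10.6 and 2.5 on their controls. It rose by 4.0 ± 0.28 (adjusted p = 8.2e-11), and its change was -0.18 ± 0.28 in DBA, 0.85 ± 0.28 in F1 and 2.60 ± 0.24 in BALB/c at day 18. It differed from DBA by 4.18 (adjusted p = 1.1e-06) and from F1 by 3.15 (adjusted p = 0.00015), while the difference from day 18 did not pass the test (adjusted p = 0.1). The neighbouring kallikrein-related protease genes Klk9 and Klk8, best known from skin and brain, rose by 3.29 ± 0.34 and 2.01 ± 0.28. Klk9 had treated signals of 304, 399 and 212 and control signals of 15, 7.2 and 2.9. In DBA the changes were 0.83 ± 0.34 for Klk9 and 0.06 ± 0.28 for Klk8, and both differed from BALB/c (adjusted p = 0.017 and 0.019).

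Further genes with a higher BALB/c than DBA change were Pttg1 (3.38 against 1.12), the interferon-induced ubiquitin ligase gene Trim30a (2.80 against 1.11) and the interferon-induced coactivator gene Helz2 (1.80 against 0.12). Among those with a lower BALB/c change was Rarres1, a retinoic acid-induced carboxypeptidase inhibitor, which fell by 1.35 ± 0.19 in BALB/c and was at 0.84 ± 0.19 in DBA. Its difference of -2.19 had an adjusted p of 5.8e-05. Against F1, the macrophage lectin gene Mgl2 (1.28 against -0.40), Ednrb (1.52 against -0.06) and Siglecf (2.14 against 0.29) were higher in BALB/c, and the macrophage genes Aif1 (1.79 against 3.66), Themis2 (1.74 against 3.23) and Pld4 (1.28 against 2.81) were lower.

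Time separated other genes within BALB/c. Rnase2a rose at day 3 and was at -0.68 ± 0.32 at day 18, a difference of 4.25 (adjusted p = 6.3e-05). Mgl2 rose by 1.28 at day 3 and was at -1.18 ± 0.22 at day 18 (adjusted p of the difference = 0.00029), and the lectin receptor gene Cd209d went from 1.60 to -0.47. The mitotic genes Cenpf (2.98 against 1.04) and Nek2 (2.69 against 0.76) had a higher change at day 3. For Cdca8, Top2a, Birc5, Ube2c, Pttg1, Pbk and Nusap1 the difference did not pass the test, with adjusted p from 0.11 to 0.38. Lower at day 3 were the vesicle protein gene Syngr1 (-0.70 against 1.65), the matrix gene Ltbp2 (-1.02 against 1.17) and the chemerin receptor gene Ccrl2 (1.28 against 2.95). Syngr1 changed little in its other probe set, at 0.02. Day 3 and day 18 belong to different runs of title codes, so time and run cannot be told apart beyond what the separate controls remove. The BALB/c day 3 change of Syngr1 missed the threshold without treated replicate 1, without control replicate 1, with all 7 BALB/c controls or with probe sets averaged (adjusted p of up to 0.29), as did that of Ltbp2 without treated replicate 1 or without control replicate 1 (adjusted p of up to 0.11).

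**Figure D4:**
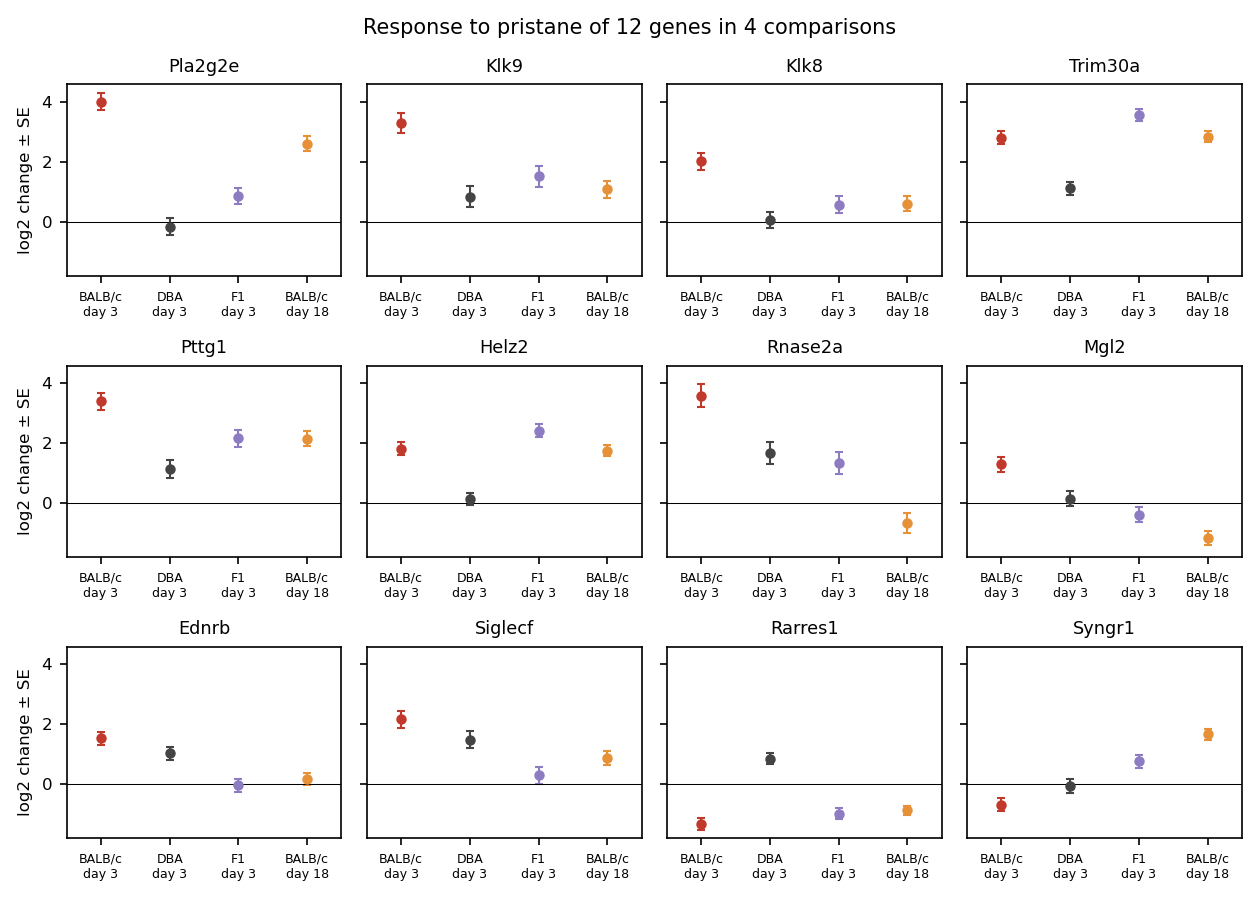
Log2 change with SE of 12 genes that differed from at least 1 other response, shown for BALB/c day 3, DBA day 3, F1 day 3 and BALB/c day 18. Pla2g2e lies at 4.0 in BALB/c at day 3 and near 0 in DBA, and Rnase2a lies at 3.57 at day 3 and under 0 at day 18.

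Promoter sequences were examined for short motifs of transcription factors of inflammation and growth, as a description of letters and not of binding. The stretches run from 250 bases before to 50 after the RefSeq start of a gene (GRCm38.p6), 300 bases in all, and 10455 tested genes had one. The motifs were searched on both strands: GAAANNGAA, an interferon response element core, TGANTCA for AP-1, GGGNNTTCC for NF-kB, TTTCCCGC or TTTGGCGC for E2F, CACGTG for the E box, TGACGTCA for the cAMP element and CCAAT. None of these letter strings contains another in full, although AP-1 and cAMP elements are alike. The interferon element was found in 7.17% of all promoters, in 12.4% of the 880 promoters of genes that rose by at least 2-fold and in 15.7% of the 267 of genes that rose by at least 4-fold. AP-1 letters were found in 5.26%, 9.32% and 11.6% of the same sets. The NF-kB string showed little such gradient, with 7.14%, 7.95% and 7.49%, and the E box string was rarer with larger increases, at 9.99%, 6.82% and 5.62%. Among the 383 promoters of genes that fell by at least 2-fold the shares were 6.53% for the interferon element, 5.48% for AP-1, 10.2% for the E box and 41.5% for CCAAT (37.9% of all). They were 5.22% for the NF-kB string, 2.09% for E2F (2.98% of all) and 2.09% for the cAMP element (3.09% of all).

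The following 5 promoters belong to genes described above and show what such matches look like. They were chosen after their values were seen, 2 for an interferon element (Trim30a and Cd300lf), 2 for AP-1 letters (Pla2g2e and Serpinb2) and 1 for an NF-kB string (Ptx3). Each is written 5' to 3' on the strand of its gene, with the motif letters other than CCAAT in capitals.
Trim30a (chr7:104465144-104465443, minus strand): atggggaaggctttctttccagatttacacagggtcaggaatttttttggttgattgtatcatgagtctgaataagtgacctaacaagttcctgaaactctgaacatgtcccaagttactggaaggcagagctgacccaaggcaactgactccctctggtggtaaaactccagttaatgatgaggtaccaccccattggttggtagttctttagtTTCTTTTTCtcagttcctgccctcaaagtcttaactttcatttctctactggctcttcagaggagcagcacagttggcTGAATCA
Cd300lf (chr11:115133943-115134242, minus strand): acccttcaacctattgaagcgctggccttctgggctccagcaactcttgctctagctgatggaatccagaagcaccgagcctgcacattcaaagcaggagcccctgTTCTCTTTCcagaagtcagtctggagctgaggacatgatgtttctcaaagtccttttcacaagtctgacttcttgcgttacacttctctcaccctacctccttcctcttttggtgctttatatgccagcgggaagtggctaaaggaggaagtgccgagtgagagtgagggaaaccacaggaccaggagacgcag
Pla2g2e (chr4:138877692-138877991, plus strand): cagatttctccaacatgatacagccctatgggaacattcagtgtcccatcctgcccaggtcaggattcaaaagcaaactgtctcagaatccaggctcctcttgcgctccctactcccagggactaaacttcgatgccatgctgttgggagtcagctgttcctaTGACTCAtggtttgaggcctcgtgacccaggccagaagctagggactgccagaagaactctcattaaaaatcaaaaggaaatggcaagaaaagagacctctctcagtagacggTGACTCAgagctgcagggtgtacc
Serpinb2 (chr1:107511173-107511472, plus strand): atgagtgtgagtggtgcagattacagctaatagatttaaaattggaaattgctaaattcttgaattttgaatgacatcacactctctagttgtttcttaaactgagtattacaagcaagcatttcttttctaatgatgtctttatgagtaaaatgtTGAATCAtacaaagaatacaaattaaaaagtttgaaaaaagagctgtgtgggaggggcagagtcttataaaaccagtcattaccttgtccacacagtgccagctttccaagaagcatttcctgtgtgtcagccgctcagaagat
Ptx3 (chr3:66219637-66219936, plus strand): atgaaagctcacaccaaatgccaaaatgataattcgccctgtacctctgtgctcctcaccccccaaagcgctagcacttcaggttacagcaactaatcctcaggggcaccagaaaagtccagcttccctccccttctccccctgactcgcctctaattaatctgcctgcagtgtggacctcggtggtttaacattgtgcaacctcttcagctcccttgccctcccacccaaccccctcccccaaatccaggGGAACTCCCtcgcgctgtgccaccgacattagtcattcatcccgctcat

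Trim30a holds the interferon string from base 216 of the 300 and AP-1 letters from base 294. Cd300lf holds the interferon string from base 107. Pla2g2e, the gene with the largest difference from DBA in the positive direction, holds AP-1 letters from bases 164 and 277, before and after the start, and Serpinb2 holds them from base 157. Ptx3 holds the NF-kB string from base 252. Where a named gene had no match, this says only that the letters are not in this stretch.

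**Figure D5:**
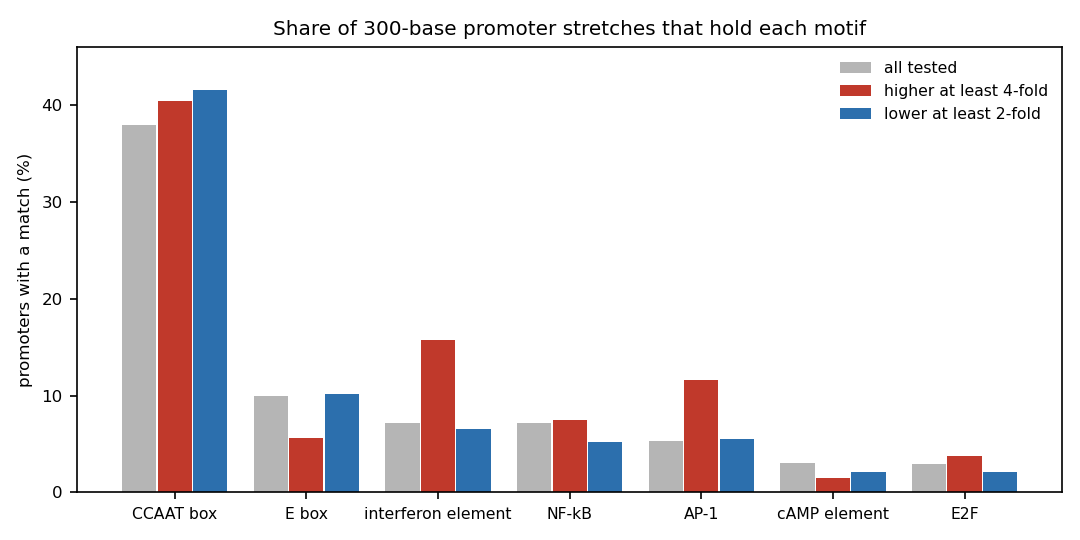
Share of promoter stretches (%) that hold each motif on either strand, for 10455 tested genes (grey), 267 genes that rose by at least 4-fold (red) and 383 genes that fell by at least 2-fold (blue). The interferon element and AP-1 bars are highest in the genes that rose, at 15.7% and 11.6%, against 7.17% and 5.26% of all promoters.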

How the data were processed

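Messenger RNA of mesentery was measured on 32 arrays, of which 6 are described here. Per the labels' protocols, total RNA was taken with TRIzol, cleaned on a Qiagen column and amplified before labelling with biotin. The deposited values are intensities on a linear scale, 1 per probe set. GCOS and MAS5 are named, without a version, in the submitters' processing notes, and the 2% trimmed mean of every array is 500. MAS5 turns the probes of a set into 1 signal and scales each array, so a change in total RNA per cell would not be seen. The series text names ANOVA in Partek as the authors' test. Scanner files were not used here.

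Of 45101 probe sets, 34945 had 1 symbol, 932 several and 9160 none, and 64 were array controls; 13 values were 0. The brightest probe set stood for a gene, and genes above 103.7 (the median of all values) on at least 3 arrays were tested. Log2(intensity + 24.9) was modelled in R 4.3.3 by limma 3.58.1, using a mean for each group within each run of title codes and a trend in the moderated variance. The offset is the lower quartile of all values. All 32 arrays share the estimate of the spread, while each change rests on its own arrays. With 3 arrays a group, their number limits the precision. The procedure was tested on simulated data.

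The arrays and the 66 gene lists were chosen with earlier results of these data known, and the lists got no test. Of their 1605 symbols 1457 matched and 148 did not, and 1342 genes passed the filter. The rule for named genes took called genes whose groups did not overlap, leaving out clone-like names and 313 genes, mostly best-known inflammation genes and also leading genes of earlier results of these data such as Inmt and Pck1: the 15 largest increases with a control mean above the dim filter, the 15 largest decreases with a treated mean above it, the 10 brightest treated genes among those that went from the dim filter or under to above 519.2, up to 4 members of each list, up to 6 genes in each direction of each difference, and the 5 widest treated ranges. Genes outside this rule, among them most list members that did not pass the test, were named after their values were seen. Promoter sequences came from RefSeq for GRCm38.p6 and were matched by symbol. Alternatives changed the offset, filter, normalization, arrays, variance model, controls or probe set rule, or left out 1 array.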

Additional observations from a re-analysis of the deposited data

Results flagged for a closer look

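The differences between responses that passed the test are listed here with their sizes, as the log2 change in BALB/c at day 3 minus that in the other response. In each case the difference itself was tested with limma, with p-values adjusted over all 13016 genes, and only genes that also changed in BALB/c at day 3 are given. Groups of 3 arrays are too small for a test of single outlying arrays. The other settings given below for single genes refer to the BALB/c day 3 change alone. The differences of single genes were not examined under those settings, and the counts of differences depended on them.

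Against DBA at day 3, the BALB/c change was higher by 4.18 for Pla2g2e, by 2.46 for Klk9, by 2.26 for Pttg1, by 1.95 for Klk8, by 1.70 for Trim30a and by 1.67 for Helz2. It was lower for Rarres1 (-2.19), the Fc receptor-like gene Fcrls (-1.94), the integrin-related gene Itgbl1 (-1.79), Apba3 (-0.71), Rab10os (-0.68) and the zinc finger gene Klf3 (-0.57). Rarres1 and Fcrls fell in BALB/c, by 1.35 and 0.82, and had positive changes of 0.84 and 1.13 in DBA. Apba3 fell in BALB/c by 0.29. The BALB/c day 3 change of Fcrls missed the threshold without treated replicate 3 (adjusted p = 0.052), as did that of Apba3 without treated replicate 1, 2 or 3, without control replicate 1 or 2, with no dim filter or with median centring (adjusted p of up to 0.14). The BALB/c day 3 change of Rab10os missed the threshold with all 7 BALB/c controls (adjusted p = 0.82), as did that of Klf3 with median centring (adjusted p = 0.062).

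Against F1 at day 3, the BALB/c change was higher by 3.15 for Pla2g2e, by 1.86 for Siglecf, by 1.71 for Pmepa1, by 1.67 for Mgl2, by 1.58 for Ednrb and by 0.68 for the calcineurin gene Ppp3ca. It was lower for Dusp4 (-2.06), Aif1 (-1.87), Pld4 (-1.53), Themis2 (-1.50), Syngr1 (-1.45) and Parp11 (-1.28). Dusp4 fell by 1.05 in BALB/c and stood at 1.01 in F1. Pmepa1, an inhibitor of TGF-beta signals, rose by 0.61 in BALB/c and stood at -1.10 in F1. The BALB/c day 3 change of Pmepa1 missed the threshold without treated replicate 1 or 3, without control replicate 1 or 3 or with median centring (adjusted p of up to 0.1), as did that of Parp11 without treated replicate 3 or with probe sets averaged (adjusted p of up to 0.074).

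Against BALB/c at day 18, the day 3 change was higher by 4.25 for Rnase2a, by 2.46 for Mgl2, by 2.22 for Klk9, by 2.07 for Cd209d, by 1.94 for Cenpf and by 1.93 for Nek2. It was lower for Syngr1 (-2.34), Ltbp2 (-2.20), Cd300c2 (-1.70), Gpr137b-ps (-1.69), Ccrl2 (-1.67) and Cpeb2 (-1.65). Ltbp2, which binds microfibrils of the matrix, fell by 1.02 at day 3 and stood at 1.17 at day 18. Cpeb2 fell by 1.09 at day 3, a change that was 0.061 with all 7 BALB/c controls. The BALB/c day 3 change of Gpr137b-ps missed the threshold without any single array of the 6, with quantile normalization or with median centring (adjusted p of up to 0.11).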

How the results depend on the processing

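The counts of genes that were higher or lower in BALB/c at day 3, in all and at 2-fold, stayed within 1.5 times of the reported counts in all 80 values computed under the alternatives. Median centring put 46.7% of the calls on the higher side and quantile normalization 48.5%, against 51.5% as reported.

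The counts of differences between responses moved more. Against DBA they were 31 with median centring, 326 with only the 18 arrays of the day 3 run, 200 without the least correlated control array and 929 with array weights. Against F1 they were 281 with the 18 arrays, 164 without that array, 121 with all 7 BALB/c controls and 715 with array weights. Against day 18 they were 110 without that array, 1814 with all 7 controls, which then share arrays between both responses, 31 with an ordinary linear model and 547 with array weights. Leaving out 1 BALB/c array gave 23 to 68 against DBA, 10 to 57 against F1 and 19 to 48 against day 18. The cause was not tested.

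With all 7 BALB/c controls the changes of Zfp383 (0.308), Dhodh (0.242), Nampt (0.243) and Cpeb2 (0.061) turned positive, and the cause was not tested. Of the other values of named genes, 165 of 50 genes kept their direction and lost their call, and 75 of 28 genes gained one, with the direction kept except for Pik3cd, which rose by 1.02 with probe sets averaged. The genes that gained a call were Abca1, Aldh1a1, Alox15, Atf4, Cad, Dcn, F3, Fabp4, Fth1, Gclc, Gclm, Hspa1b, Idh2 and Ikbkb. The others were Itgav, Odc1, Pik3cd, Ppat, Ppm1k, Rel, Sdhc, Slc40a1, Sqle, Stra6, Tfrc, Tnfaip6, Trib3 and Umps. List medians moved by more than the spread between arrays in 10 values, among them paired myeloid receptors at 2.13 and 2.15 with a floor or an offset of 1 and pancreatic acinar markers at -2.16 with all 7 controls. No paired analysis was possible because replicate numbers follow accession order and pair no arrays. Signals near background limit the dimmest genes, whose changes depend on the offset.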
